A study of Mus musculus with 7 samples.

Results

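Collagens and laminins are the structural proteins of the extracellular matrix, and they were followed here in ventricles of mouse embryos at E11.5 with and without the transcription factor Hand1. Members were all genes whose symbol began like a collagen chain (Col, a number, a, a number) or a laminin chain (Lam, then a, b or c, and a number), which gave 49 of the 13701 genes in the table. One match, Col4a3bp, encodes a lipid transfer protein and no collagen, and it was left out of every count, so 48 members remained. They comprised 10 fibrillar collagens, 8 basement membrane collagens, 11 laminins and 19 other collagens. All 48 passed the filter on low counts, and the lowest count of a member summed over the 7 libraries was 209.

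The study sequenced polyadenylated RNA to learn which genes respond when the heart loses Hand1, a helix-loop-helix regulator known for its role in the left ventricle. In the knockout group (2 libraries) both Hand1 alleles were floxed and 1 Nkx2.5 allele carried Cre. Flox controls (2 libraries) had the same floxed alleles and wild-type Nkx2.5, whereas Cre controls (3 libraries) had wild-type Hand1 and the Cre allele. All embryos were of mixed background and untreated. The knockout thus shares its floxed alleles with one control group and its Cre allele with the other. Cre under Nkx2.5 acts in the cells that express Nkx2.5, chiefly heart muscle and its progenitors, and the dissected ventricle also holds other cell types. The labels name neither litters nor the number of hearts per library, so p-values measure only the spread between these samples, and replicate numbers follow the order of the samples.

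Fibrillar collagens assemble into the fibrils that give connective tissue its tensile strength. Type IV collagens and laminins form the networks of the basement membrane, the sheet of matrix that surrounds heart muscle cells and lies under endocardium and epicardium. Each laminin is a trimer of an alpha, a beta and a gamma chain, and collagen chains also join as trimers, through a repeat of glycine and any pair of residues that winds into a triple helix. In the embryonic heart, collagens are made largely by mesenchymal, endocardial and epicardial cells, whereas type IV collagens and laminins are made by many cell types, heart muscle included.

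The repeat that sets fibrillar collagens apart from those of the basement membrane can be read in the coding sequence. Both stretches below come from the GENCODE M21 transcripts (GRCm38), run 5′ to 3′ and cover 24 codons each, with a glycine codon in capitals where it heads a triplet of the repeat. The Col3a1 stretch (chromosome 1, codons 164 to 187) opens the longest run of the gene, and the Col4a1 stretch (chromosome 8, codons 151 to 174) shows where a run ends.
Col3a1: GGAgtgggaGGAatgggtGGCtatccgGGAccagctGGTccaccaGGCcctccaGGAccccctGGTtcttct
Col4a1: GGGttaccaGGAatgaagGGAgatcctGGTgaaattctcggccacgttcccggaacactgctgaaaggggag
In Col3a1, 8 of 8 triplets begin with glycine, whereas in Col4a1 the first 4 of 8 do and the rest interrupt the helix. Over whole coding sequences, the longest unbroken run held 216 to 344 triplets in the 10 fibrillar collagens (median 338). It held 30 to 66 in the 8 basement membrane collagens (median 41) and 23 to 113 in the 19 other collagens (median 52). In the 11 laminins, which have no collagen helix, it held 2 or 3.

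Libraries held 18975283 counts (knockout replicate 2) to 28346700 counts (knockout replicate 1). Hand1 was counted 37 and 19 times in the knockout libraries, 875 and 1272 times in the flox controls and 1852 to 2465 times in the Cre controls. Knockout replicate 2 stood apart, with a correlation across genes of at most 0.927 with any other library, whereas for the 6 others the highest such correlation was 0.977 or more. In that library longer genes lay lower, with a median of -0.66 (log2, relative to the mean of the 5 controls) for the 686 genes over 8000 bases and 1.35 for the 906 genes of up to 1000 bases. Values are therefore given per library, and the tests that members or other named genes passed are given with and without it, markers of cell types excepted.

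Collagen and laminin RNA was near the control level in one knockout heart library and far below it in the other. The levels of all 48 members summed to 7862 CPM (counts scaled to library size by TMM) in knockout replicate 1 and 1208 CPM in knockout replicate 2. The sums were 4838 and 7938 CPM in flox control replicates 1 and 2, and 7923, 8780 and 7064 CPM in Cre control replicates 1 to 3. Knockout replicate 1 thus held 108% and knockout replicate 2 16.5% of the mean of the 5 controls (7309 ± 1509 CPM, SD, n = 5). The second-lowest library was flox control replicate 1, at 60.9% of the other flox control. In whole tissue, fewer cells of a type and less RNA per cell cannot be told apart.

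By their sums, the classes were low in knockout replicate 2 in different degrees. Their median deviations per gene lay closer together, from -2.35 (log2, fibrillar) to -1.94 (basement membrane). Fibrillar collagens summed to 1957 and 318 CPM in the knockout libraries, 1398 and 2257 CPM in the flox controls, and 2208, 2244 and 2185 CPM in the Cre controls. Basement membrane collagens summed to 3372 and 396 CPM in the knockout, 1746 and 3069 CPM in the flox controls, and 3068, 3491 and 2467 CPM in the Cre controls. Laminins summed to 2088 and 355 CPM in the knockout, 1225 and 2052 CPM in the flox controls, and 2096, 2443 and 1840 CPM in the Cre controls. Other collagens were the least abundant class, with 445 and 139 CPM in the knockout, 469 and 560 CPM in the flox controls, and 551, 602 and 572 CPM in the Cre controls. Knockout replicate 2 was the lowest library in each class, at 15.5% (fibrillar), 14.3% (basement membrane), 18.4% (laminin) and 25.2% (other) of the control mean. Knockout replicate 1 lay within the range of the controls for the fibrillar, basement membrane and laminin sums, and below every control for the other collagens, at 80.7% of their mean.

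**Figure D1:**
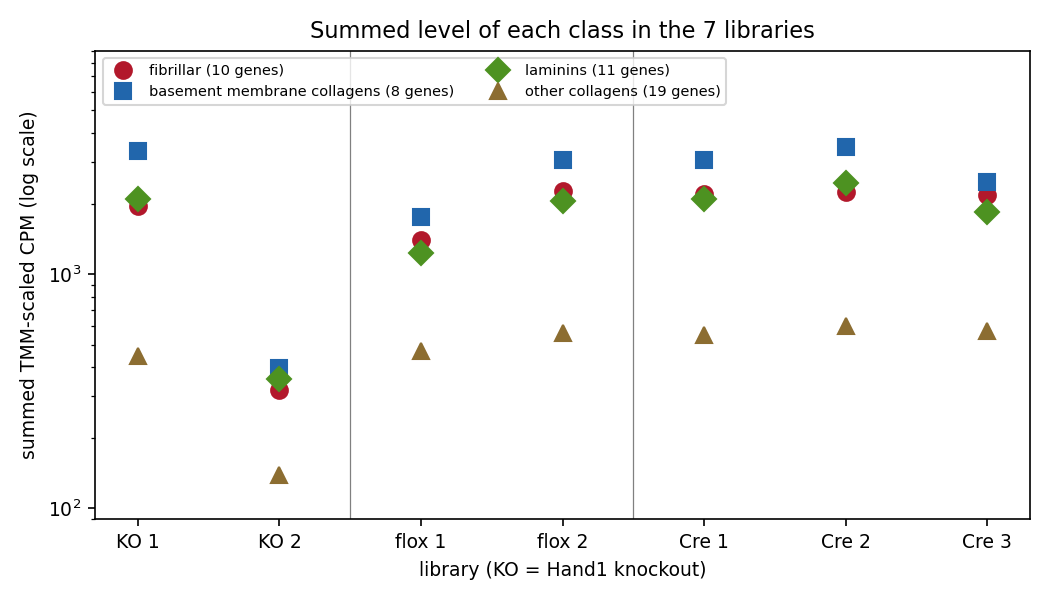
Summed level of each class of collagens and laminins (y axis, TMM-scaled CPM, log scale) in each of the 7 libraries (x axis), grouped by genotype with no averaging. In knockout replicate 2 every class lies below all other libraries, and flox control replicate 1 is the lowest control in every class.

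Per kilobase of the deposited exon length, basement membrane genes and Col3a1 led the members. The highest mean level in the 5 controls was that of Col4a1, at 167 ± 44.5 CPM per kilobase (SD, n = 5), followed by Col3a1 at 125 ± 24.1, Col18a1 at 117 ± 24.8, Col4a2 at 99.6 ± 30.3 and Lamc1 at 88.2 ± 23.5. Col4a1 ranked 1 in each of the 5 controls. From Col3a1 to Lamc1, neighbours in the order differed by less than the spread between control libraries. Within single controls Col3a1 ranked from 2 to 4, Col18a1 always 3 and Col4a2 from 2 to 6. At the other end, Col4a3 ranged from 0.0666 to 0.317 CPM per kilobase in the controls. Col4a1 also ranked 1 in knockout replicate 1.

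**Figure D2:**
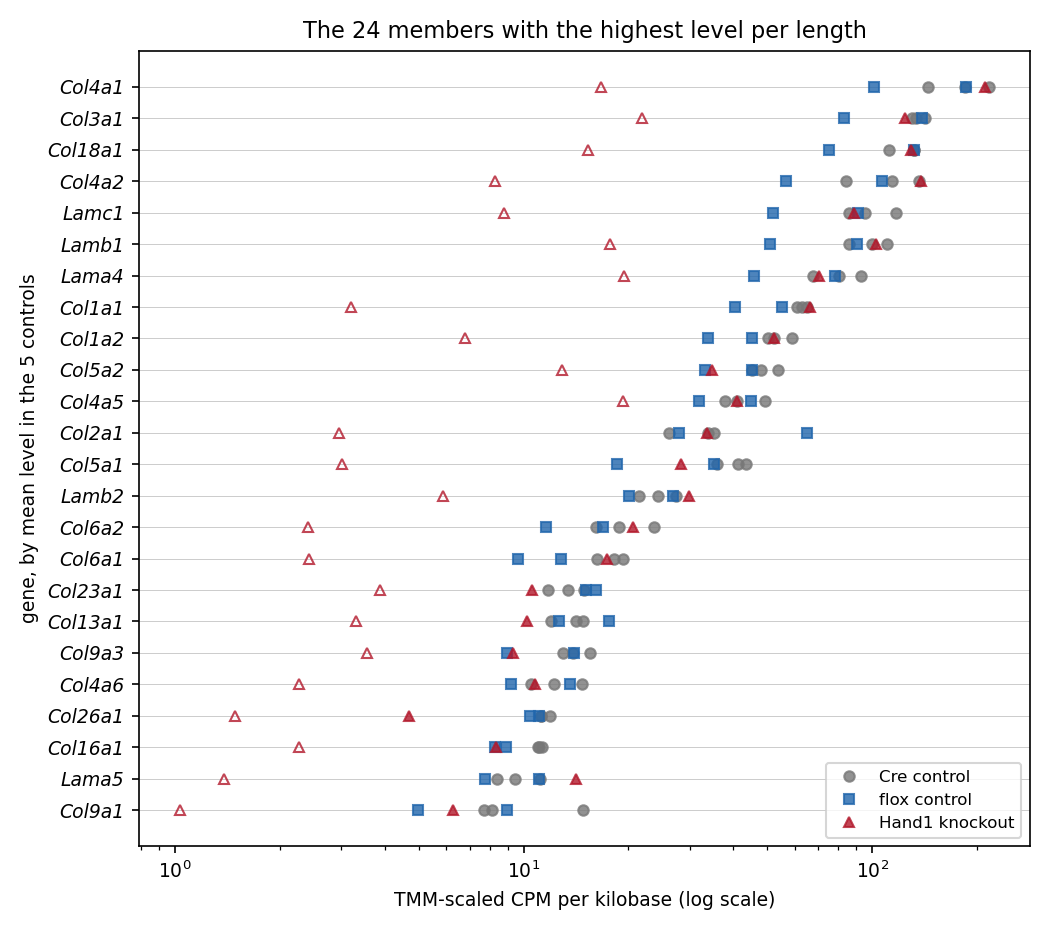
Level of the 24 members with the highest mean in the controls (y axis, in that order), in TMM-scaled CPM per kilobase (x axis, log scale), 1 point per library and open triangles for knockout replicate 2. Knockout replicate 2 lies to the left of every other library for each gene shown, whereas knockout replicate 1 lies among the controls for most.

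Among fibrillar collagens, knockout replicate 2 lay below every control for 10 of 10 genes. Col1a1, the main chain of type I collagen, stood at 312 and 15.1 CPM in the knockout libraries, 190 and 259 CPM in the flox controls, and 296, 306 and 285 CPM in the Cre controls. Knockout replicate 1 was the highest of the 7 libraries and knockout replicate 2 the lowest, at 5.63% of the control mean. This was the lowest percentage among the 48 members. Col3a1, the homotrimeric type III chain on chromosome 1 (45311538 to 45349706, plus strand), stood at 693 and 122 CPM in the knockout, 462 and 771 CPM in the flox controls, and 744, 722 and 788 CPM in the Cre controls. Its knockout libraries lay within and below the controls. Col2a1, the collagen of cartilage that is also made in other embryonic tissue, stood at 173 and 15.2 CPM in the knockout, 143 and 333 CPM in the flox controls, and 174, 180 and 134 CPM in the Cre controls. Flox control replicate 2 was the high library, and knockout replicate 1 lay among the other controls. Both knockout libraries lay below every control for Col11a1, Col24a1 and Col27a1. Col11a1, a minor chain of cartilage-type fibrils, stood at 21.6 and 6.50 CPM in the knockout, 23.8 and 35.3 CPM in the flox controls, and 30.5, 30.3 and 32.9 CPM in the Cre controls. Knockout replicate 1 was close below flox control replicate 1. For Col11a1 the edgeR log2 change was -1.06 ± 0.53 (SE) against flox (adjusted p = 0.603) and -1.14 ± 0.49 against Cre controls (adjusted p = 0.328), so neither passed. Without knockout replicate 2 the edgeR changes of Col11a1 were -0.44 and -0.51 (adjusted p = 0.279 and 0.368). Col1a2, the partner of Col1a1, stood at 269 and 34.9 CPM in the knockout and 174 to 303 CPM in the controls. Of the type V chains, Col5a1 stood at 237 and 25.4 CPM against 156 to 366 CPM, and Col5a2 at 229 and 85.5 CPM against 220 to 354 CPM. In these 3 genes knockout replicate 1 lay inside the control range. Col24a1 stood at 0.942 and 0.301 CPM in the knockout and 1.24 to 1.83 CPM in the controls. Col27a1, a fibrillar collagen of developing cartilage, stood at 17.6 and 10.7 CPM against 22.5 to 34.2 CPM.

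Among basement membrane collagens, knockout replicate 2 lay below every control for 7 of 8 genes, Col4a3 being the exception, and knockout replicate 1 for 0 of 8. Col4a1, a chain of the ubiquitous type IV network, stood at 1396 and 110 CPM in the knockout libraries, 671 and 1229 CPM in the flox controls, and 1219, 1434 and 955 CPM in the Cre controls. Knockout replicate 1 lay within the Cre controls, and knockout replicate 2 was 10.0% of the control mean. Its partner chain Col4a2 stood at 886 and 53.2 CPM in the knockout, 364 and 688 CPM in the flox controls, and 734, 873 and 540 CPM in the Cre controls. Knockout replicate 1 was the highest library for Col4a2 and knockout replicate 2 the lowest. The edgeR log2 change of Col4a1 was -0.33 ± 1.01 (SE) against flox (adjusted p = 0.902) and -0.67 ± 0.94 against Cre controls (adjusted p = 0.665), an error as large as the change or larger. Without knockout replicate 2 the estimate was above 0, at 0.57 and 0.24 (edgeR adjusted p = 0.368 and 0.814), and without knockout replicate 1 it was -3.10 and -3.44 (adjusted p = 0.00139 and 0.000519). Col18a1, a basement membrane collagen that carries heparan sulfate, stood at 748 and 88.9 CPM in the knockout and 435 to 766 CPM in the controls.

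Col4a1 and Col4a2 lie head to head on chromosome 8, and their start region is shown because both chains are read from it. In the table Col4a1 spans 11198423 to 11312826 on the minus strand with 52 exons, and Col4a2 spans 11312829 to 11449287 on the plus strand with 48 exons (mm10). In the RefSeq promoter table (GRCm38.p6) the start of Col4a2 is 11312805 and that of Col4a1 is 11312826. The region chr8:11312777-11312854, plus strand, is printed with the 22 bases from one start to the other in capitals. Its GC content is 73.1%.
Col4a1 and Col4a2 shared start region: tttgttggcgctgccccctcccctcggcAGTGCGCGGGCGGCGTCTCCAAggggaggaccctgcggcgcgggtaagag
Across the 7 libraries the 2 genes kept nearly the same proportion: the level per length of Col4a1 was 1.60 to 1.79 times that of Col4a2 in the 5 controls, 1.53 times in knockout replicate 1 and 2.02 times in knockout replicate 2. The 2 genes do not overlap in the deposited coordinates, whereas from the RefSeq starts they share the 22 bases in capitals. Counting that does not use strand could not separate reads of such shared bases. The use of strand is not given in the sources used here.

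Col4a5 and Col4a6 form another head-to-head pair, on chromosome X, with RefSeq starts 1342 bases apart. They did not keep their proportion in knockout replicate 2. Col4a5 stood at 265 and 125 CPM in the knockout libraries, 207 and 292 CPM in the flox controls, and 265, 319 and 246 CPM in the Cre controls. Knockout replicate 1 lay among the controls, and knockout replicate 2 was 47.1% of their mean. Col4a6 stood at 71.9 and 15.1 CPM in the knockout, 61.0 and 90.2 CPM in the flox controls, and 81.2, 97.8 and 69.7 CPM in the Cre controls. Per length, the level of Col4a5 was 3.31 to 3.61 times that of Col4a6 in the 5 controls, 3.78 times in knockout replicate 1 and 8.48 times in knockout replicate 2. Both genes are X-linked, and Xist, the RNA of the inactive X, was at 1.21 CPM or below in flox control replicate 1 and Cre control replicates 1 and 3, and at 488 CPM or above in the 4 other libraries. The part of embryo sex in these levels was not tested.

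Among laminins, knockout replicate 2 lay below every control for 10 of 11 genes. Lamc1, the gamma chain of most laminins, stood at 676 and 67.2 CPM in the knockout libraries, 395 and 694 CPM in the flox controls, and 728, 892 and 653 CPM in the Cre controls. Its beta partner Lamb1 stood at 591 and 102 CPM in the knockout, 294 and 522 CPM in the flox controls, and 576, 638 and 496 CPM in the Cre controls. For both chains knockout replicate 1 lay inside the control range and knockout replicate 2 far below it. Lama4, the alpha chain typical of vessels and endocardium, stood at 424 and 118 CPM in the knockout, 277 and 473 CPM in the flox controls, and 487, 562 and 409 CPM in the Cre controls. The chains Lama1, Lama5 and Lamb2 were above every control in knockout replicate 1. Lama1 stood at 16.9 CPM against 5.73 to 11.4 in the controls, Lama5 at 161 CPM against 88.1 to 127, and Lamb2 at 168 CPM against 113 to 154. In knockout replicate 2 the same chains stood at 0.843, 15.8 and 33.0 CPM, below every control. Lama1, the alpha chain of early embryonic laminin, had 484 and 14 counts in the knockout libraries and 147 to 305 in the controls. Both knockout libraries lay below every control for Lama3, a chain of the laminin of epithelial attachment, at 4.19 and 2.23 CPM against 4.57 to 8.05 CPM in the controls. Lama2, the alpha chain of muscle laminin, stood at 26.1 and 9.51 CPM in the knockout and 22.4 to 35.9 CPM in the controls. The gamma chain Lamc3 stood at 8.17 and 0.783 CPM against 4.33 to 9.34 CPM. Lamb3, the exception in knockout replicate 2, stood at 4.22 and 2.35 CPM against 1.81 to 5.91 CPM. No laminin passed the edgeR test in either knockout comparison, the lowest adjusted p being 0.447 against flox and 0.324 against Cre controls.

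Some pairs of laminin chains departed from their proportion in knockout replicate 2, and others did so less or not at all. Per length, the level of Lamb1 was 0.944 to 1.04 times that of Lamc1 in the controls, 1.15 times in knockout replicate 1 and 2.01 times in knockout replicate 2. The level of Lama4 was 0.789 to 0.883 times that of Lamc1 in the controls, 0.792 times in knockout replicate 1 and 2.21 times in knockout replicate 2. The level of Lama5, in contrast, was 0.0954 to 0.149 times that of Lamc1 in the controls, 0.159 times in knockout replicate 1 and 0.157 times in knockout replicate 2. Lamb2 and Lamb1 are both beta chains, which do not share a trimer. The level of Lamb2 was 0.243 to 0.394 times that of Lamb1 in the controls, and 0.292 and 0.331 times in the knockout libraries. In knockout replicate 2 the 2 chains of type I collagen departed from their proportion, with Col1a1 per length at 1.03 to 1.30 times Col1a2 in the controls, 1.27 times in knockout replicate 1 and 0.473 times in knockout replicate 2. So did those of type V collagen, which start fibrils, with Col5a1 at 0.559 to 0.863 times Col5a2 in the controls, and at 0.815 and 0.233 times in the knockout libraries. Col6a1 and Col6a2, neighbours on chromosome 10 whose chains build beaded filaments, kept their proportion, at 0.760 to 1.00 times in the controls and 0.843 and 1.01 times in the knockout. These ratios are descriptions of single libraries.

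Seen gene by gene, knockout replicate 2 lay below every control for 44 of 48 members, where 42.3% of all genes tested did so. The 4 others were Col4a3, Lamb3, Col8a1 and Col25a1, and no member lay above every control. Knockout replicate 2 lay below knockout replicate 1 for 46 of 48 members, where 49.7% of all genes did. The median deviation of the members from the control mean was -2.10 (log2), with a range from -4.12 to 0.27, against -0.02 for all genes. In knockout replicate 1 the median was -0.13, against -0.02 for all genes, with a range from -1.24 to 0.92. Knockout replicate 1 lay below every control for 13 of 48 members (27.6% of all genes) and above every control for 6 (24.7% of all genes). The first count is close to the background share and the second below it. By class the median deviation of knockout replicate 1 was -0.16 for fibrillar collagens, 0.11 for basement membrane collagens, 0.27 for laminins and -0.42 for other collagens. That of knockout replicate 2 was -2.35, -1.94, -2.02 and -2.06.

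**Figure D3:**
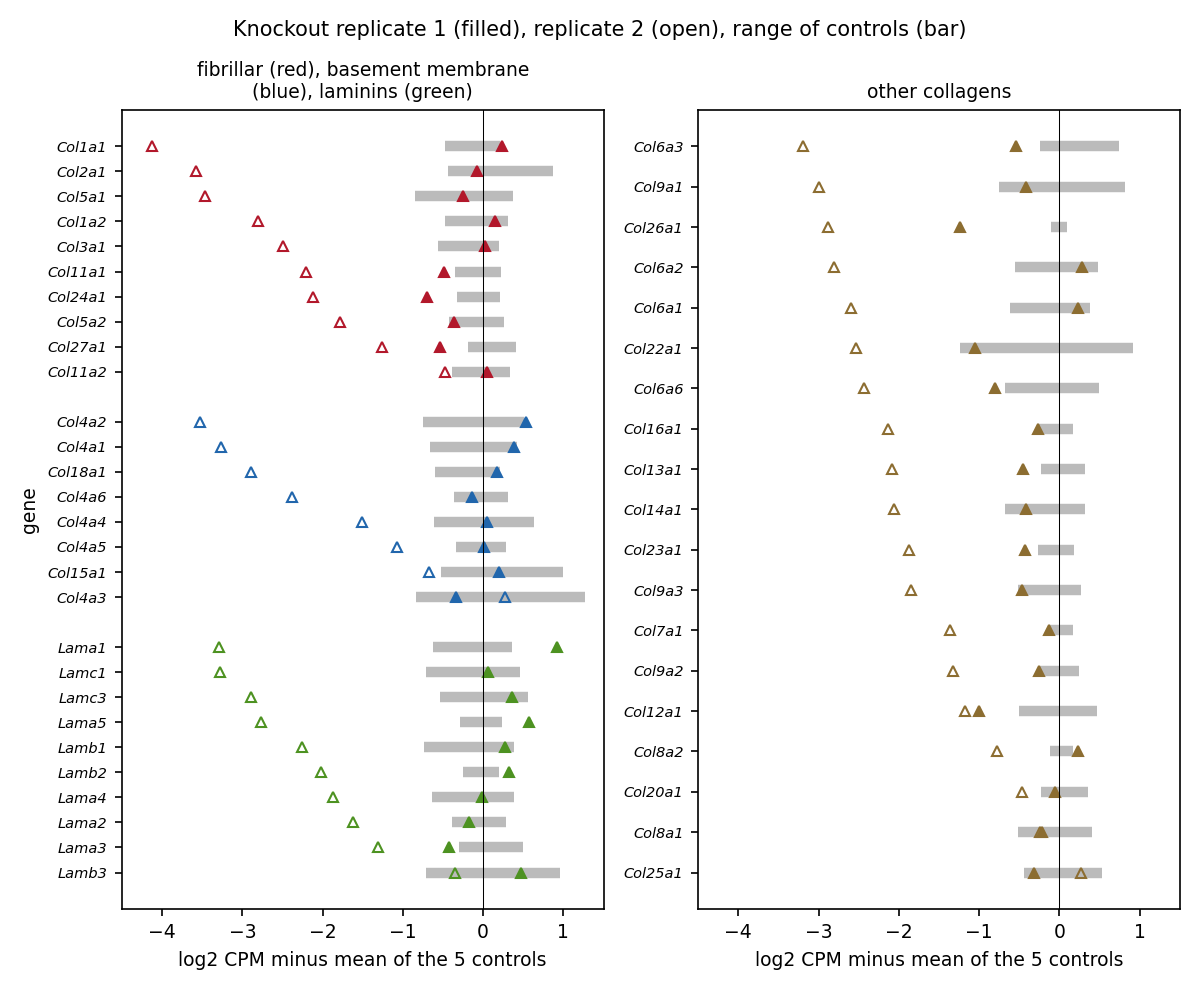
Deviation of 47 of the 48 members from the mean log2 CPM of the 5 controls (x axis) in knockout replicate 1 (filled) and replicate 2 (open), with the range of the controls as a grey bar, by class. Open points lie left of the bar for 43 of these members, and filled points mostly on it, with 12 below and 6 above.

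The 13 members below every control in knockout replicate 1 were also below every control in replicate 2, where 11.6% of all genes tested had both knockout libraries below. They were 8 other collagens, 3 fibrillar collagens, 2 laminins and 0 basement membrane collagens. With replicate 2 below every control for 44 of 48 members, replicate 1 nearly sets the count of 13. Its own share was close to that of all genes (27.6%). No member had both knockout libraries above every control (8.19% of all genes). The 8 other collagens were Col26a1, Col12a1, Col6a3, Col6a6, Col13a1, Col23a1, Col9a2 and Col7a1. Among them are the transmembrane collagens Col13a1 and Col23a1. Col23a1 stood at 59.8 and 21.9 CPM in the knockout, 85.7 and 91.1 CPM in the flox controls, and 76.0, 84.3 and 66.7 CPM in the Cre controls. Col13a1 stood at 32.5 and 10.5 CPM in the knockout, 40.0 and 55.5 CPM in the flox controls, and 46.8, 44.9 and 38.0 CPM in the Cre controls. For both genes even the higher knockout library was under the lowest control. Col6a3, the long chain of type VI collagen, stood at 13.0 and 1.99 CPM in the knockout and 15.9 to 31.6 CPM in the controls, while Col6a1 was not below the controls in replicate 1. Col6a6, a further type VI chain, rested on few counts, 58 and 10 in the knockout against 58 to 136 in the controls. Col9a2, a chain of the fibril-associated type IX collagen, stood at 18.6 and 8.85 CPM in the knockout and 18.9 to 26.4 CPM in the controls. Its partner Col9a3 stood at 26.5 and 10.1 CPM against 25.5 to 44.0 CPM, with knockout replicate 1 inside the control range. Col7a1, the collagen of anchoring fibrils, stood at 5.48 and 2.29 CPM against 5.50 to 6.75 CPM, so that knockout replicate 1 was just under the lowest control. Col6a2 stood at 76.9 and 8.97 CPM against 43.3 to 88.0 CPM.

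No member passed the edgeR test (adjusted p below 0.05 over all genes) in either comparison with the knockout. Of all genes tested, 0.0146% were called lower and 0% higher in each comparison. At an unadjusted edgeR p below 0.05 there were 7 members (14.6%) against flox, where 8.36% of all genes were, and 8 members (16.7%) against Cre controls, where 15.4% of all genes were. The second share is near the background. The median log2 change of the members was -0.59 against flox controls (all genes 0.02), with 45 of 48 below 0. It was -0.82 against Cre controls (all genes 0.00), with 46 of 48 below 0. Both comparisons share the knockout libraries. Without knockout replicate 2 the medians were -0.074 and -0.14, and without knockout replicate 1 they were -2.04 and -2.28. Without knockout replicate 1, 41 members passed the edgeR test as lower against flox and 40 against Cre controls, where 28.4% and 32.4% of all genes were called lower. A comparison with 1 knockout library rests on the spread within the control groups alone.

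The identifiers of both knockout libraries and of flox control replicate 2 begin with NT, and those of the 4 other libraries do not. The labels do not say what the letters stand for. Within these 3 libraries, knockout replicate 1 lay below the flox control for 32 of 48 members (52.2% of all genes), with a median difference of -0.26 (log2). Knockout replicate 2 did so for 46 of 48 (50.8% of all genes), with a median of -2.13. Fitted on these 3 libraries, edgeR and DESeq2 called no member, and the median change was -0.80 and -0.78. All Cre controls have other letters, so there the letters and the group cannot be told apart.

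By DESeq2, 2 members were called lower against flox controls, Col26a1 and Col12a1, where 1.53% of all genes were. Against Cre controls 3 were called lower, Col26a1, Col12a1 and Col22a1, where 2.46% of all genes were. None was called higher, where 0.672% and 1.59% of all genes were. All of them are other collagens, and none belongs to the fibrillar or basement membrane classes.

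Col26a1, a short collagen first described in developing mouse gonads, is read from the minus strand of chromosome 5 (136741764 to 136883107). It stood at 12.7 and 4.03 CPM in the knockout libraries, 28.2 and 30.1 CPM in the flox controls, and 30.4, 32.1 and 30.4 CPM in the Cre controls. The controls lay within a narrow range, and both knockout libraries were under it, at 42.0% and 13.3% of the control mean. Against flox the DESeq2 log2 change was -1.75 ± 0.52 (SE, adjusted p = 0.0358), and that of edgeR was -1.78 ± 0.48 (adjusted p = 0.447). Against Cre controls the DESeq2 change was -1.85 ± 0.47 (adjusted p = 0.00514), and that of edgeR was -1.87 ± 0.46 (adjusted p = 0.266). Without knockout replicate 2, edgeR also called Col26a1 lower, at -1.18 against flox (adjusted p = 0.0469) and -1.26 against Cre controls (adjusted p = 0.0183). It was the 1 member that edgeR called in that setting, where 0.226% and 0.256% of all genes were called lower. The DESeq2 call against flox was lost without flox control replicate 1 or 2 (adjusted p = 0.709 and 0.937) and without Cre control replicate 1, 2 or 3 (0.227, 0.21 and 0.213). The other call did not pass once Cre control replicate 1, 2 or 3 was left out (DESeq2 adjusted p = 0.0744, 0.0864 and 0.0909). The log2 change stayed between -1.70 and -1.86 in these 8 fits.

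Col12a1, which encodes a collagen bound to the surface of fibrils, is read from the minus strand of chromosome 9 (79598987 to 79718722). It stood at 22.7 and 20.2 CPM in the knockout libraries, 63.0 and 54.5 CPM in the flox controls, and 32.0, 39.4 and 44.8 CPM in the Cre controls. Here the knockout libraries were close to each other, both lay below every control, and the 3 groups did not overlap. Against flox the DESeq2 log2 change was -1.42 ± 0.25 (SE, adjusted p = 8.83e-06), and that of edgeR was -1.45 ± 0.22 (adjusted p = 0.243). Against Cre controls the DESeq2 change was -0.83 ± 0.23 (adjusted p = 0.0149), and that of edgeR was -0.86 ± 0.20 (adjusted p = 0.25). Without knockout replicate 2 the DESeq2 changes were -1.35 (adjusted p = 6.06e-06) and -0.75 (adjusted p = 0.0357). The DESeq2 call against flox was lost without flox control replicate 1 or 2 (adjusted p = 0.234 and 0.0502). The other call did not pass without either flox control (DESeq2 adjusted p = 0.133 and 0.136) or without any of Cre control replicates 1 to 3 (0.112, 0.349 and 0.384). Col12a1 is the longest member, with 11719 bases of exon. With the trend of length removed, its edgeR change was -0.81 against flox (adjusted p = 0.414) and -0.39 against Cre controls (adjusted p = 0.349).

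Col22a1, a fibril-associated collagen known from tissue junctions such as that of muscle and tendon, is read from the minus strand of chromosome 15 (71798476 to 72034227). It stood at 2.65 and 0.903 CPM in the knockout libraries, 3.08 and 2.32 CPM in the flox controls, and 10.7, 9.31 and 7.62 CPM in the Cre controls. The 4 libraries with floxed Hand1 were all below the 3 with wild-type Hand1, and knockout replicate 1 lay between the flox controls. Against Cre controls the DESeq2 log2 change in the knockout was -2.31 ± 0.47 (SE, adjusted p = 0.000163), and that of edgeR was -2.33 ± 0.46 (adjusted p = 0.21). The DESeq2 call held without any 1 of the 7 libraries, at -1.77 without knockout replicate 2 (adjusted p = 8.01e-05). Against flox controls the change was -0.56 ± 0.48 by edgeR (adjusted p = 0.688) and not called by DESeq2 (adjusted p = 0.687).

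**Figure D4:**
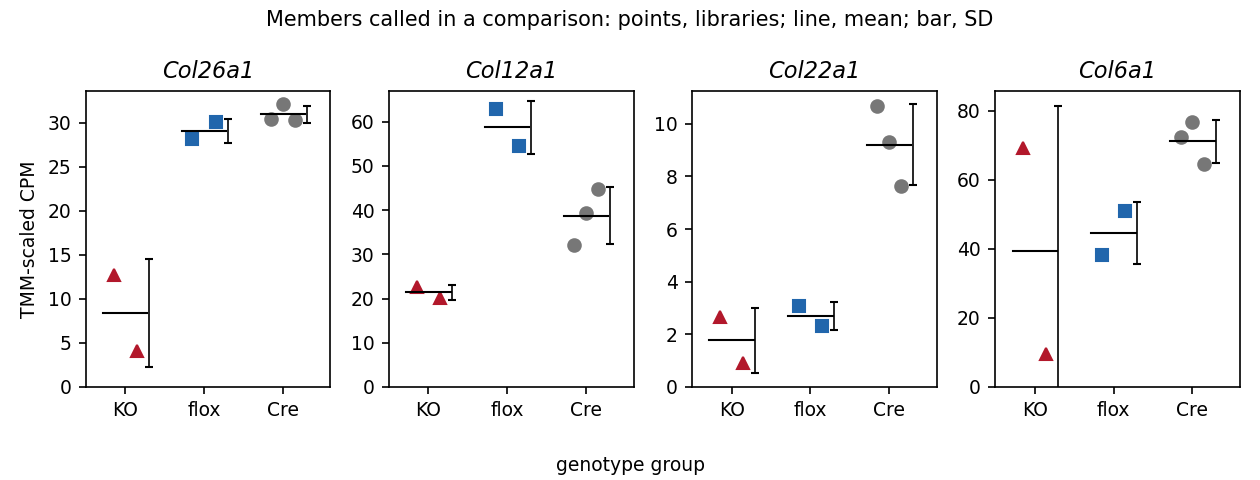
Level (y axis, TMM-scaled CPM, from 0) of the 4 members called in any comparison, 1 point per library by genotype group (x axis), with the group mean as a line and the SD as a bar (n = 2, 2 and 3). For Col26a1 and Col12a1 both knockout points lie below every control, for Col22a1 knockout and flox points lie together below the Cre controls, and the knockout bar of Col6a1 (39.4 ± 42.1) is cut at 0.

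Between the control groups, which differ in Hand1 allele and in Cre, edgeR on the 5 control libraries called 1 member, Col22a1, as lower in flox controls (0.102% of all genes) and 0 as higher (0.307% of all genes). Its change was -1.76 ± 0.22 on the log2 scale (SE; edgeR adjusted p = 0.0302) and -1.77 by DESeq2 (adjusted p = 9.59e-09). The edgeR call was lost without Cre control replicate 1, 2 or 3 (adjusted p = 0.163, 0.123 and 0.0939) and kept without either flox control. DESeq2 called 2 members lower in flox controls, Col22a1 and Col6a1 (1.1% of all genes), and 1 higher, Col12a1 (1.78% of all genes). Col6a1 stood at 38.2 and 50.9 CPM in the flox controls, 72.4, 76.7 and 64.5 CPM in the Cre controls, and 69.2 and 9.63 CPM in the knockout libraries. The controls did not overlap, and knockout replicate 1 lay inside the Cre controls. The change of Col6a1 between the controls was -0.67 ± 0.17 (SE, DESeq2 adjusted p = 0.00532; edgeR adjusted p = 0.141). It was lost by DESeq2 without Cre control replicate 1 or 2 (adjusted p = 0.154 and 0.158). Col12a1 was higher in flox controls by 0.60 ± 0.18 (DESeq2 adjusted p = 0.03; edgeR adjusted p = 0.183). That call was lost without flox control replicate 1 (DESeq2 adjusted p = 0.167) or Cre control replicate 1 or 2 (0.415 and 0.198).

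The flox controls differed from each other across the members. Flox control replicate 1 lay below replicate 2 for 40 of 48 members, where 50.7% of all genes did, with a median difference of -0.45 (log2). Among laminins it did so for 11 of 11, among fibrillar collagens for 9 of 10, among other collagens for 15 of 19 and among basement membrane collagens for 5 of 8. The median change of the members between the control groups was -0.21 (all genes 0.01). It was 0.026 without flox control replicate 1 and -0.39 without replicate 2. Without flox control replicate 2, edgeR called 19 members lower and 2 higher in flox controls, where 12.8% and 17.3% of all genes were called. Both flox controls lay below every Cre control for 10 members (17.2% of all genes) and above for 4 (17% of all genes). The first count is a share near the background and the second one below it.

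In knockout replicate 2 the members lay far below other genes of their length. Members are long genes, with 2705 to 11719 bases of exon. Above 4000 and up to 6000 bases the 18 members had a median deviation of -2.08 (log2) and the 2690 genes of that band one of -0.47. From there to 8000 bases the medians were -2.12 for 15 members and -0.65 for 1031 genes, and above 8000 bases -1.62 for 9 members and -0.66 for 686 genes. Across the 48 members the deviation did not follow length, with a Pearson correlation with log10 length of 0.00, against -0.43 across all 13701 genes. With the smooth trend of length removed from each library, the median change of the members was -0.27 against flox and -0.61 against Cre controls, and edgeR called no member in either.

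**Figure D5:**
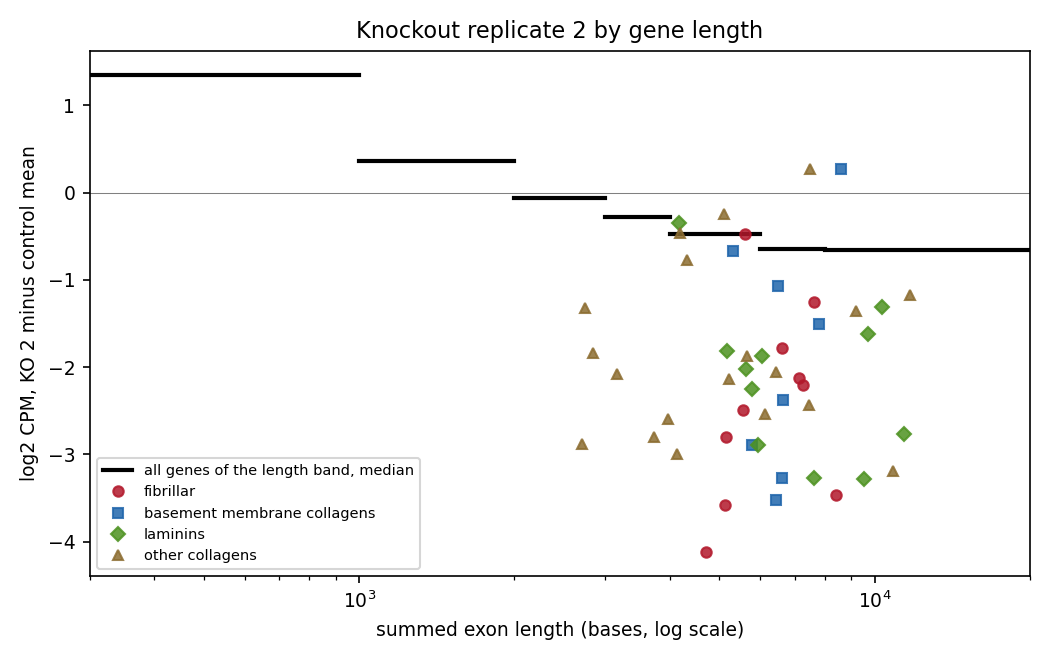
Deviation of knockout replicate 2 from the mean log2 CPM of the 5 controls (y axis) against summed exon length in bases (x axis, log scale) for the 48 members, with the median of all genes of each length band as a black line. Most members lie below the line of their band, also in the bands where the line is near 0.

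The deviation was related to how abundant a member was. The 22 members with at least 10 CPM per kilobase in the controls had a median of -2.54 (log2) in knockout replicate 2, the 14 members between 1 and 10 had -1.94 and the 12 members under 1 had -0.99. All genes of these bands had medians of 0.03, -0.05 and -0.11. The Pearson correlation with log2 CPM per kilobase was -0.59 over the 48 members and 0.08 over all genes. Low members can deviate less because the prior count of 2 draws them together. All 22 members of the highest band also lay lower in flox control replicate 1 than in replicate 2. The members were richer in GC than other genes (median 55.3% against 50.3% of the transcript), and the correlation of the deviation with GC was -0.30 over members and -0.48 over the 12709 genes with a transcript. The part of length, GC or RNA quality in the low level was not tested.

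By the median, genes of collagen biosynthesis and crosslinking lay nearer to the controls than the members did in knockout replicate 2. Longer genes lay lower in that library and members are long, and the part of length in this difference was not tested. Of 28 measured genes of collagen biosynthesis and crosslinking, 23 lay below every control in knockout replicate 2, where 42.3% of all genes tested did. Their median was -1.12 (log2) in that library, against -0.02 for all genes, and 0.00 in knockout replicate 1. Serpinh1, the collagen chaperone HSP47, stood at 1291 and 428 CPM in the knockout libraries, 729 and 1009 CPM in the flox controls, and 1057, 1018 and 927 CPM in the Cre controls. Ppib, an isomerase that aids collagen folding, stood at 243 and 344 CPM in the knockout and 216 to 244 CPM in the controls, so knockout replicate 2 was its highest library. No gene of the list passed the edgeR test. By DESeq2, Adamts3, a procollagen peptidase, was lower against both control groups, at 6.14 and 4.22 CPM in the knockout against 11.3 to 15.6 CPM in the controls (log2 -1.23 against flox, adjusted p = 0.00942, and -1.28 against Cre controls, adjusted p = 0.00109). Against Cre controls DESeq2 also called Adamts2 lower (log2 -2.65, adjusted p = 0.0094) and Tll1, a tolloid-like protease that trims procollagen, higher (log2 1.29, adjusted p = 9.52e-05). Adamts2, another procollagen peptidase, stood at 2.44 and 0.482 CPM in the knockout and 4.17 to 15.8 CPM in the controls, and Tll1 at 10.4 and 9.21 CPM against 3.42 to 6.06 CPM. These 4 DESeq2 calls held without knockout replicate 2, at -1.01 and -1.05 for Adamts3 (adjusted p = 0.0184 and 0.0102), -1.94 for Adamts2 (0.00729) and 1.37 for Tll1 (0.00169).

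Partners of laminin and type IV collagen in the basement membrane were low in the same library. In knockout replicate 2 all 16 lay below every control (42.3% of all genes tested), with a median of -2.22 (log2), against -0.02 for all genes. The median in knockout replicate 1 was -0.06. Hspg2, the proteoglycan perlecan, stood at 1004 and 63.4 CPM in the knockout libraries, 577 and 925 CPM in the flox controls, and 1004, 1270 and 881 CPM in the Cre controls. Frem1, a protein of epithelial basement membranes, stood at 27.6 and 32.3 CPM in the knockout, 86.9 and 77.5 CPM in the flox controls, and 67.0, 68.7 and 64.1 CPM in the Cre controls. In contrast to Hspg2, the 2 knockout libraries of Frem1 were close to each other and both below every control. DESeq2 called Frem1 lower against flox (log2 -1.43, adjusted p = 2.39e-12) and Cre controls (log2 -1.13, adjusted p = 2.38e-09). Smoc1, a calcium-binding matrix protein, was the other call of this list, at 2.41 and 1.75 CPM in the knockout and 8.11 to 12.3 CPM in the controls (DESeq2 adjusted p = 3.93e-08 and 4.08e-14). Without knockout replicate 2, edgeR called both genes lower as well, Frem1 at -1.56 and -1.25 (adjusted p = 0.0224 and 0.0185) and Smoc1 at -1.83 and -2.17 (adjusted p = 0.0469 and 0.0174). With all libraries no gene of the list passed edgeR, where the lowest adjusted p was 0.0571, for Smoc1 against Cre controls.

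Of 15 measured receptors of collagen and laminin, 14 lay below every control in knockout replicate 2 (42.3% of all genes tested). Their median was -1.02 (log2), against -0.02 for all genes. Itgb1, the beta chain of most such integrins, stood at 1015 and 930 CPM in the knockout, 1111 and 1114 CPM in the flox controls, and 1063, 1078 and 1139 CPM in the Cre controls, and thus differed little between libraries. DESeq2 called Itga7, a laminin receptor of muscle, lower against Cre controls (log2 -2.10, adjusted p = 0.0469), at 1.12 and 0.181 CPM in the knockout and 0.975 to 3.36 CPM in the controls. That call was lost without knockout replicate 2 (log2 -1.39, DESeq2 adjusted p = 0.162). It called Itga6, another laminin receptor, lower in flox than in Cre controls (log2 -0.42, adjusted p = 0.0342), at 435 and 518 CPM against 625 to 665 CPM. Of 7 measured small proteoglycans that bind collagen, 4 lay below every control in knockout replicate 2, a count near the share of all genes (42.3%). Their median was -0.41 (log2) in that library and 0.25 in knockout replicate 1. Of this list, Ogn was called higher against Cre controls by DESeq2 (log2 2.83, adjusted p = 0.0218). It stood at 5.10 and 45.0 CPM in the knockout and 2.96 to 9.24 CPM in the controls, so the call rested on knockout replicate 2 and was lost without it (log2 0.53, DESeq2 adjusted p = 0.806). Dcn, decorin, likewise stood at 34.5 and 99.2 CPM against 37.6 to 54.3 CPM, and was not called (DESeq2 adjusted p = 0.664 and 0.281).

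Markers of cell types were compared as well. Knockout replicate 2 lay below every control for 7 of 9 endocardial and endothelial, 6 of 7 mesenchymal and 4 of 7 epicardial markers. It did so for 6 of 7 heart muscle, 3 of 3 cartilage and 0 of 6 erythroid markers, and for 42.3% of all genes tested. The epicardial count is the nearest to that share. The 9 endocardial and endothelial markers summed to 1284 to 1578 CPM in the controls, 1182 CPM in knockout replicate 1 and 652 CPM in replicate 2. The 7 markers of cushion mesenchyme and fibroblast precursors summed to 647 to 865 CPM, 531 CPM and 303 CPM. The 7 epicardial markers summed to 311 to 376 CPM, 404 CPM and 312 CPM, so that replicate 2 was just above the lowest control, with a median deviation of -0.20 (log2). The 7 heart muscle markers, which include the defining Tnnt2, summed to 18604 to 33110 CPM in the controls, 33507 CPM in replicate 1 and 12997 CPM in replicate 2. Tnnt2 itself fell less than that sum in replicate 2, to 85.9% of the control mean. It stood at 3024 and 2395 CPM in the knockout and 2462 to 3129 CPM in the controls. The 6 measured erythroid markers had their highest sum in replicate 2, at 14147 CPM against 3681 to 8016 CPM in the controls and 2948 CPM in replicate 1. Their median deviation in replicate 2 was 0.99 (log2). In that library the 906 genes of up to 1000 bases had a median of 1.35, and 40.6% of all genes tested lay above every control. The part of length in the erythroid level was not tested. Of 4 cartilage markers, Matn1 was not in the table, and the other 3, among them the member Col9a1, summed to 23.6 to 63.4 CPM in the controls, 27.1 CPM and 4.70 CPM. Against flox controls DESeq2 called Comp and Acan of cartilage lower, and of heart muscle Nppa and Myl7, 1 lower and 1 higher. Against Cre controls it called Nppa and Comp lower and Tcf21, an epicardial and mesenchymal marker, higher. Between the controls it called Myl7 lower and Acan higher in flox controls, and edgeR also called Acan (adjusted p = 0.0493). These calls are not given without knockout replicate 2. The part of these cell types in the level of the members was not tested. The 4 liver markers were not in the table.

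The authors' deposited table compares the knockout with the Cre controls alone. In the authors' deposited table, 6 members had a false discovery rate below 0.05, all lower, where 3.71% of all genes were lower and 6.8% higher. They were Col22a1 (log2 -2.35, rate 0.00296), Col26a1 (-1.89, rate 0.00108), Col11a1 (-1.15, rate 0.0374), Col13a1 (-1.01, rate 0.0475), Col27a1 (-0.96, rate 0.041) and Col12a1 (-0.87, rate 0.0468) in the authors' deposited table. Col4a1, Col3a1 and Lamc1, the most abundant chains of the main networks, were at -0.68, -0.89 and -1.03 in the authors' deposited table, with rates of 0.566, 0.305 and 0.297.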

How the data were processed

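The authors deposited raw read counts per gene with gene coordinates and summed exon length. For the knockout against Cre controls the authors also deposited a log2 fold change, a p-value and a false discovery rate per gene. STAR 2.4.2a, featureCounts, Subread 1.5.0, edgeR and mm10 are named, per the submitters' processing notes. Settings, annotation and strand are not given in the sources used here. Every per-sample column was used.

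Counts were tested with edgeR 4.0.16 (quasi-likelihood, TMM, filterByExpr, robust) in R 4.3.3. Knockout comparisons used all 7 libraries (13695 genes), and the comparison of controls the 5 control libraries (13681 genes). Benjamini-Hochberg adjustment ran over all genes tested, with a threshold of 0.05. SEs of edgeR are the log2 change divided by the square root of F. Levels are TMM-scaled CPM, log2 CPM used a prior count of 2, and CPM per kilobase used the deposited length.

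One member enters the counts and sums but is not reported here by name. The members, classes and gene lists were chosen with earlier results of these data known. Those named were taken from members called in any comparison, the 5 highest per length of each class, those with both knockout libraries outside the controls, and chains of 1 molecule. Of each other list of matrix genes the called genes were named, or otherwise the highest, and Serpinh1, Ppib, Hspg2, Itgb1 and Dcn were added after their values were seen. Marker lists of cell types were summed, and their called genes were named. Alternatives were RLE scaling, no scaling factors, DESeq2 1.42.0, voom (limma 3.58.1), filters on low counts, removal of a length trend (mgcv 1.9.3), other sets of libraries and leaving out each library. DESeq2 without each library, fits on the libraries with NT identifiers and the tests of other listed genes without each knockout library were added after seeing the data. Simulated counts for these libraries held known changes, and edgeR found 79% of the 2-fold and 97% of the 4-fold ones against flox, 85% and 98% against Cre, and 87% and 99% between controls. The simulated counts had the spread of the control libraries alone. The knockout libraries differed far more from each other, so the shares against flox and Cre do not apply to the knockout comparisons reported here.

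Sequences came from RefSeq (GRCm38.p6, promoters found for 33 members) and GENCODE M21. The coding sequence was the longest open reading frame of a gene's transcripts.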

Additional observations from a re-analysis of the deposited data

How the results depend on the processing

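Scaling, filters and fits of the compared groups alone called 0 members in both knockout comparisons and 1 between the controls, as reported. DESeq2 called 2 against flox, 3 against Cre controls and 3 between the controls. With all 7 libraries in 1 fit, edgeR called 0 between the controls. Among the fits that left out 1 library, those without a knockout library moved the medians against flox and Cre controls most. The edgeR counts ranged from 0 to 41 (flox), 0 to 40 (Cre) and 0 to 21 (controls), and those of DESeq2, added after seeing the data, from 0 to 41, 1 to 40 and 1 to 22. The median change of the members ranged from -2.04 to -0.074 against flox, from -2.28 to -0.14 against Cre controls and from -0.39 to 0.026 between the controls, and by DESeq2 from -2.01 to -0.067, -2.26 to -0.14 and -0.40 to 0.026. The change of Col6a1 against flox, -0.17, was 0.65 without knockout replicate 2 (0.66 by DESeq2, adjusted p = 0.0481), -2.21 without knockout replicate 1, and 0.093 when flox control replicate 2 was left out (0.094 by DESeq2). The cause was not tested. With raw library totals the fibrillar sum in Cre controls was 2244 instead of 2212 CPM. Of the 10 members highest per length in the controls, 9 were among the 10 highest without length.

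No paired analysis was possible because the labels name no litters and do not say what their identifiers stand for. With 2 knockout libraries that differ this much, the data set no level of collagen or laminin for the knockout as a group. Genes near 1 CPM, such as Col24a1 with 5 counts in knockout replicate 2, carry large counting error.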
